A study of Mus musculus with 10 samples.

Results

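Macroautophagy is the route by which a cell encloses proteins and organelles in a double membrane, the autophagosome, and delivers them to the lysosome. Its core genes act in a fixed order, from a kinase complex that starts the process through a lipid kinase and a ubiquitin-like conjugation system to the LC3 and GABARAP proteins that coat the growing membrane and bind cargo receptors. Neurons depend on it strongly because they do not divide, and several of its receptors and regulators carry mutations in ALS. Here 43 genes of this machinery were described, taken by symbol from a fixed list of initiation, conjugation, receptor and regulator genes. All 43 were found among the 25232 genes of the deposited table.

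The table comes from RNA-sequencing of the spinal cord of 5 WT and 5 *SOD1 G93A* mice, all females of 90 days and of strain C57BL/6 by the labels, or C57BL/6J by the methods, which also name the lumbar region. The *SOD1 G93A* animals bear a multicopy transgene of human *SOD1* with a mutation of familial ALS in addition to their own *Sod1*, and the WT animals were littermates. The only measurement used here was the base mean, a DESeq2 output in which the authors scaled each library's counts by its size factor and averaged the 10 libraries, so every value below pools both genotypes. No difference between the genotypes, spread between mice or depth per library was analysed here, and small differences between genes have no error against which to set them. The base means of all genes summed to 22158933 normalized counts.

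The base mean grows with the length of a transcript, so levels of different genes were compared as the base mean per kilobase of exon, using the union of all annotated exons of each gene. The percentile of a gene is its rank by that level among the 20645 genes with a base mean above 0 and a known length. The median of those genes was 63.1 normalized counts per kb.

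The labelled tissue was checked against cell type markers, by base mean. The oligodendrocyte gene *Mbp* reached 319615, the neuronal genes *Snap25* and *Nefl* 59050 and 47472, and the astrocyte gene *Gfap* 56290 normalized counts. The motor neuron genes *Chat* and *Slc5a7* had base means of 735 and 2316, and *Isl1* and *Mnx1* of 45.6 and 37.3. The microglial genes *Csf1r* and *P2ry12* had base means of 3041 and 583. Genes of tissues beside the cord were lower, with the skeletal muscle gene *Acta1* at 251 and the liver gene *Alb* at 46.8. In such bulk tissue, a gene's level depends both on how many cells express it and on the RNA per cell, and these cannot be told apart.

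All 43 autophagy genes had a base mean of at least 10, and 42 of them lay above the median gene in level per kb. Their median level was 258.9 normalized counts per kb, and their median percentile was 78.6. The middle of the list was narrow, with quartiles of 147 and 445 normalized counts per kb, whereas the highest member exceeded the lowest 121-fold. Only *Gabarapl1* and *Pink1* were in the top 1% of genes, and 10 members were in the top 10%. The levels by role, drawn for every gene, show the LC3 and GABARAP family and the receptors with the highest median percentiles, 97.6 and 93.9, followed by the ULK complex at 85.0.

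**Figure D1:**
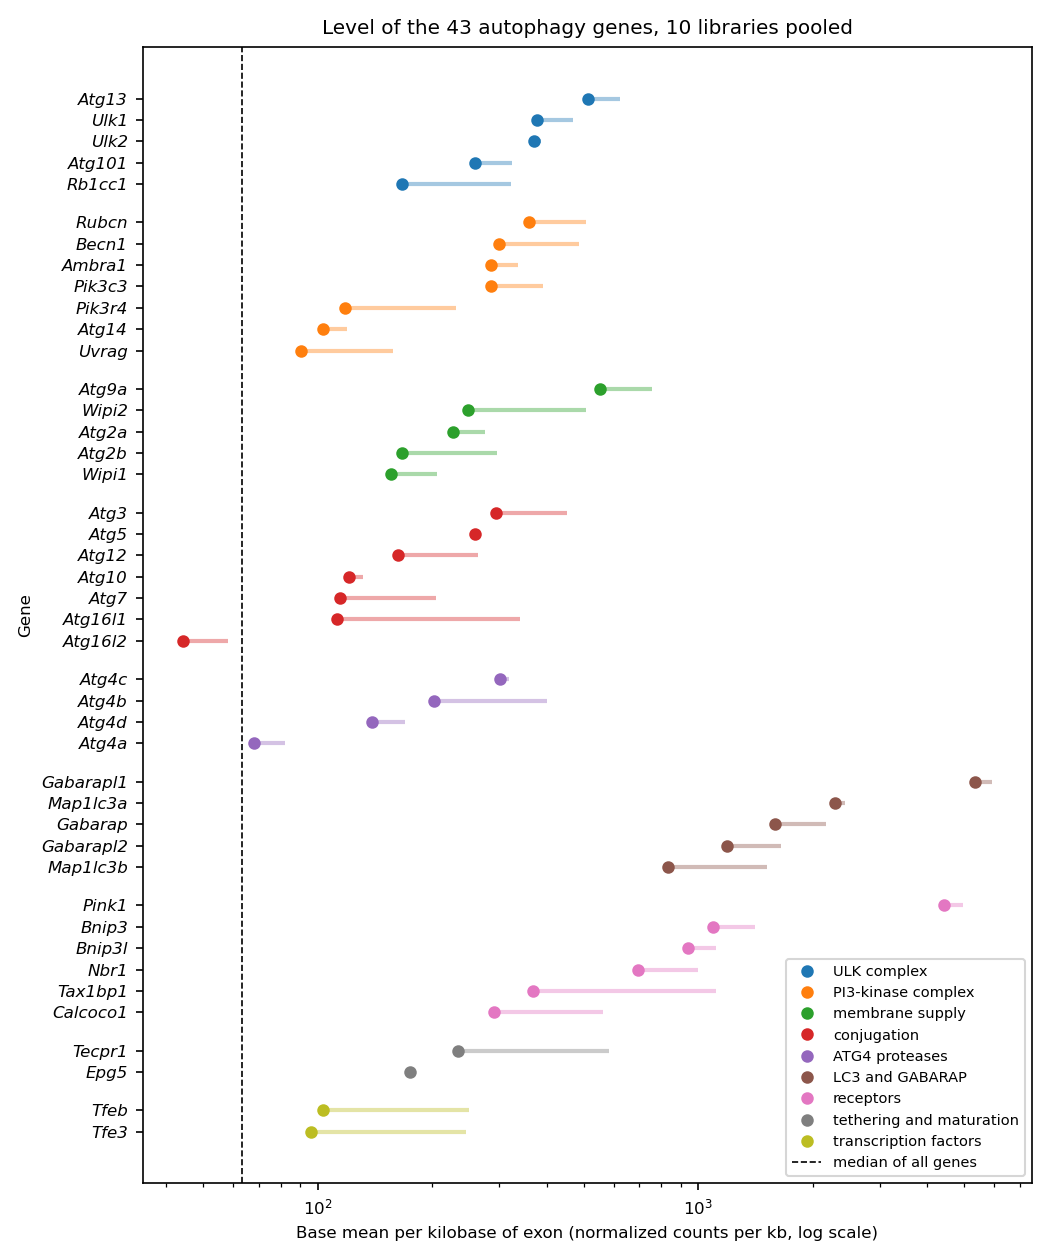
Base mean per kilobase of exon (normalized counts per kb, log axis) for each of the 43 autophagy genes, grouped by role, pooled over the 10 libraries. Points use the union of all exons, the pale bars span the values under 3 definitions of gene length, and the dashed line is the median of all genes at 63.1; *Gabarapl1* at 5338 and *Pink1* at 4423 are highest and *Atg16l2* at 44.2 is the only point left of the line.

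The machinery starts with the ULK complex, in which the kinases Ulk1 and Ulk2 respond to nutrient and energy signals. *Ulk1* and *Ulk2* were measured at nearly the same level, 376 and 371 normalized counts per kb, a ratio of 1.02. *Atg13*, the adaptor that links the kinases to their scaffold, was the highest of the 5 genes at 514 normalized counts per kb. *Atg101*, which binds and stabilizes Atg13, had a level of 258 normalized counts per kb. *Rb1cc1*, the large scaffold also known as FIP200, was the lowest at 167 normalized counts per kb. By base mean, however, *Rb1cc1* was level with *Ulk1*, at 2449 and 2443 normalized counts, and its exons are the longest of the 5, at 14.7 kb. The 5 genes lay between percentiles 69.5 and 89.6.

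Next acts the class III phosphatidylinositol 3-kinase complex, which marks the site of autophagosome formation with the lipid PI3P. Its catalytic subunit *Pik3c3*, also known as Vps34, had a level of 285 normalized counts per kb. *Becn1*, the beclin 1 subunit, was close to it at 300.1 normalized counts per kb, and *Ambra1*, a regulator that binds beclin 1, was also at 285. The regulatory subunit *Pik3r4*, also known as Vps15, was lower at 118 normalized counts per kb. *Atg14* and *Uvrag* are alternative subunits that direct the kinase to autophagosome formation and to endosomal sorting, and their levels were 103 and 90.2 normalized counts per kb. *Rubcn*, an inhibitor of the complex that holds Uvrag, was the highest of the 7 genes at 360 normalized counts per kb, at percentile 84.6.

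Membrane is supplied to the growing autophagosome by Atg9a, a lipid scramblase carried on small vesicles, and by the lipid transfer proteins Atg2a and Atg2b. *Atg9a* had a level of 553 normalized counts per kb, at percentile 90.5. *Atg2a* and *Atg2b* had levels of 227 and 166 normalized counts per kb. *Wipi2*, which binds PI3P and brings in Atg16l1, was at 248 normalized counts per kb, against 155 for its paralog *Wipi1*.

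The conjugation enzymes attach LC3 and GABARAP proteins to lipid, and their 7 genes had a median percentile of 62.6. Only the transcription factors were lower by role, although the Atg4 proteases were also lower, at 70.1 against 72.7, when the longest transcript set the length. *Atg3*, the enzyme that passes LC3 to its lipid, was the highest of them per kb, at 295 normalized counts per kb. By base mean *Atg3*, at 930 normalized counts, was below *Atg12* and *Atg16l1*, at 1254 and 1083. *Atg7*, the activating enzyme of both conjugation reactions, was lower than *Atg3*, at 114 normalized counts per kb. *Atg10*, the conjugating enzyme for Atg12, had a level of 121 normalized counts per kb. *Atg12* and *Atg5*, whose products are joined to each other, had levels of 163 and 258.9 normalized counts per kb. By base mean, however, *Atg12* was above *Atg5*, at 1254 and 609 normalized counts, and *Atg7* above *Atg10*, at 798 and 208. Atg16l1 holds the conjugate of Atg12 and Atg5 at the membrane, and its gene had a level of 113 normalized counts per kb. Its paralog *Atg16l2* was at 44.2 normalized counts per kb, percentile 44.4, and was the only member below the median gene on that scale. By base mean *Atg16l2* was at percentile 56.2, whereas *Atg10* and *Atg4a* were below the median gene, at percentiles 47.2 and 45.4.

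The Atg4 proteases trim newly made LC3 and GABARAP proteins and later release them from the membrane. Of the summed level per kb of the 4 genes, *Atg4c* held 42.5%, *Atg4b* 28.4%, *Atg4d* 19.5% and *Atg4a* 9.56%. The order of the first 2 depended on the length used, since the ratio of *Atg4b* to *Atg4c* ranged from 0.670 to 1.26 over 3 definitions of gene length. *Atg4a* was the lowest of the 4 at 68.0 normalized counts per kb.

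The LC3 and GABARAP family marks the autophagosome and recruits cargo, and its 5 genes together held 43.1% of the summed level per kb of the 43. That share was taken per kb of all exons only, a scale that raises short genes relative to the base mean. The exons of *Map1lc3a*, *Gabarap*, *Gabarapl1* and *Gabarapl2* span 1.18 to 2.33 kb, against a median of 6.12 kb for the 43. *Gabarapl1*, at chr6:129533160-129542346 (mm10), had a base mean of 10745 normalized counts and a level of 5338 per kb, percentile 99.6. *Map1lc3a* followed at 2288 normalized counts per kb, *Gabarap* at 1588 and *Gabarapl2* at 1187. *Map1lc3b*, whose product is the LC3B protein that is widely used to mark autophagosomes, was the lowest per kb at 834. By base mean, however, *Map1lc3b* was next to *Gabarapl1* with 6266 normalized counts, since its exons span 7.52 kb against 2.01 kb. *Gabarapl1* held 47.5% of the family's summed level per kb, and 42.3% of its summed base mean. The rank of *Gabarapl1* as the highest of the 5 held on all 4 scales, while the place of *Map1lc3b* moved from last on the 3 scales per length to next highest by base mean.

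**Figure D2:**
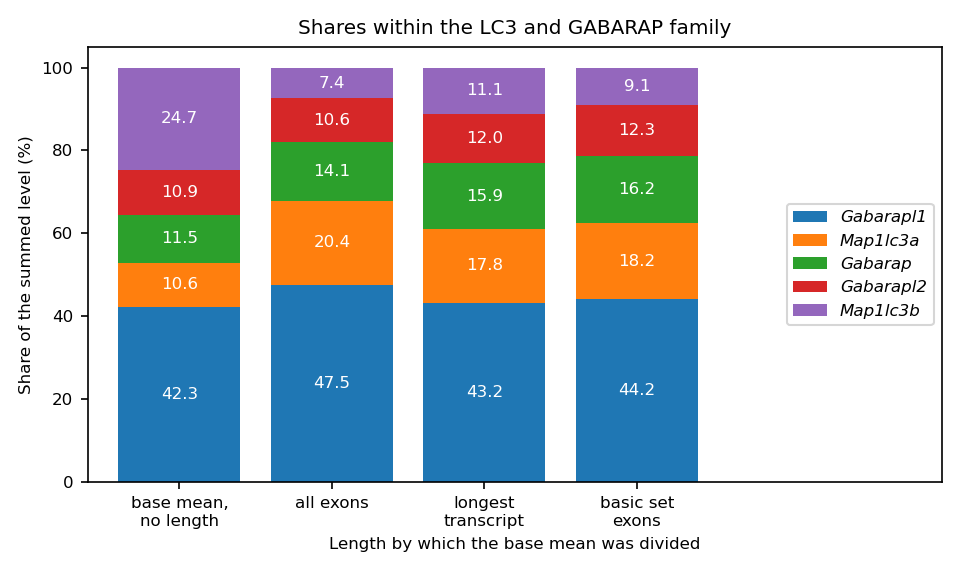
Share (%) of the family's summed level held by each of the 5 LC3 and GABARAP genes, pooled over the 10 libraries, by base mean and by base mean divided by 3 definitions of gene length. *Gabarapl1* holds between 42.3% and 47.5% in each bar, and *Map1lc3b* between 7.42% and 24.7%.

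The 5 genes are related in sequence. Their coding sequences were identical at 57.4% to 77.5% of aligned bases between pairs, the highest value being that of *Map1lc3a* and *Map1lc3b*. *Gabarap* and *Gabarapl1* shared 74.9% and had the longest identical run of any pair, 17 bases near the 3' end of the coding sequence. That run is shown because it is the longest stretch at which coding reads of 2 family members could coincide, and it is short beside a read of 100 bases. The run is in capitals and spans bases 322 to 338 of both GENCODE M21 coding sequences, each printed from base 316 to base 344.
Gabarap: tacattGCCTACAGTGATGAAAGcgtcta
Gabarapl1: tatgtgGCCTACAGTGATGAAAGtgtcta

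Receptors link cargo to LC3 and GABARAP proteins. The 5 receptor genes were grouped with *Pink1*, which is a kinase and no receptor itself, and the 6 genes had a median percentile of 93.9. *Pink1*, a kinase that gathers on damaged mitochondria and starts their removal, stood alone among them at 4423 normalized counts per kb. It lies at chr4:138313409-138326307 (mm10) and had the highest base mean of all 43 genes, 11823 normalized counts. *Pink1* by itself held 17.0% of the summed level per kb of the 43 genes, and *Gabarapl1* exceeded it 1.21-fold per kb. *Bnip3* and *Bnip3l* encode receptors of the outer mitochondrial membrane, and their levels were 1096 and 938 normalized counts per kb. *Nbr1* and *Tax1bp1*, receptors for ubiquitin-tagged cargo, were at 696 and 367 normalized counts per kb. *Calcoco1*, a receptor for the endoplasmic reticulum, was the lowest at 291 normalized counts per kb.

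The late steps were represented by 2 genes with levels near the middle of the list. *Tecpr1*, which binds Atg5 and lysosomal membrane, was at 233 normalized counts per kb, and *Epg5*, which tethers autophagosomes to late endosomes and lysosomes, was at 175. *Tfeb* and *Tfe3* encode transcription factors that switch on lysosomal and autophagy genes. They had the lowest median percentile of any role, 58.5, with levels of 103 and 96.0 normalized counts per kb.

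Paralogs were set beside each other in 9 pairs. Per kb, *Atg16l1* exceeded *Atg16l2* 2.54-fold, *Atg4b* exceeded *Atg4a* 2.98-fold and *Wipi2* exceeded *Wipi1* 1.60-fold, and each kept its direction on every scale. The counts of *Atg4a*, *Bnip3* and *Bnip3l* may lack reads that also match copies elsewhere, described below, which a change of length cannot show. *Atg4b* exceeded *Atg4d* 1.46-fold per kb and 1.66-fold by base mean. The other pairs were closer or changed order with the scale. *Atg2a* exceeded *Atg2b* 1.37-fold per kb, but the ratio fell to 0.782 by base mean. The ratio of *Tfe3* to *Tfeb* was 0.930 per kb and ranged from 0.562 to 1.69 over the 3 definitions of gene length. The ratio of *Bnip3l* to *Bnip3* was 0.856 per kb and 1.46 by base mean.

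**Figure D3:**
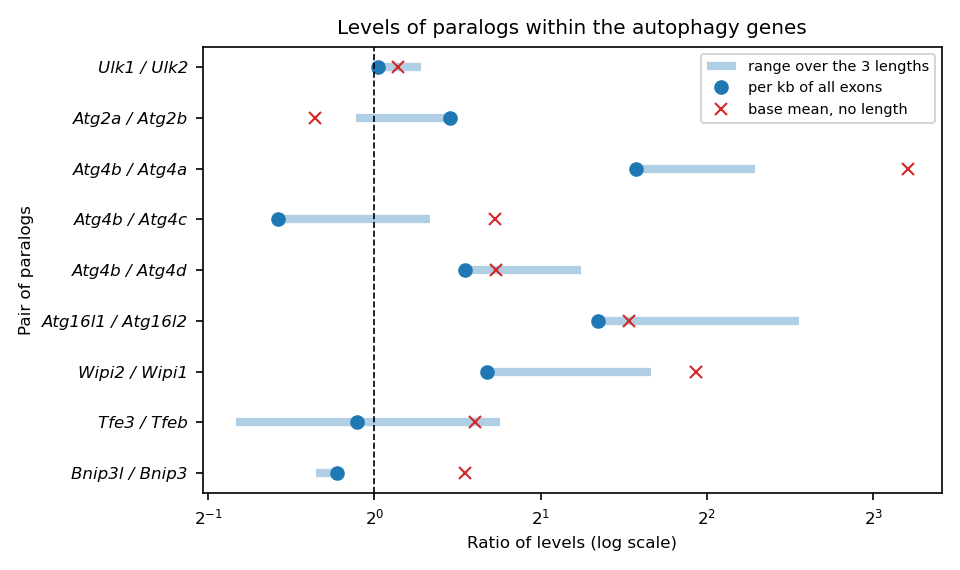
Ratio of levels (log axis) for 9 pairs of paralogs among the autophagy genes, pooled over the 10 libraries. Points are base mean per kb of all exons, pale bars the range over 3 definitions of gene length and crosses the base mean with no length; *Atg4b* over *Atg4a* is the highest point at 2.98, and the bars of *Atg2a* over *Atg2b*, *Atg4b* over *Atg4c* and *Tfe3* over *Tfeb* cross the line of equal levels.

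The 43 genes were then set beside 50 other genes of the pathway that act in nutrient sensing, autophagosome formation or fusion, as further receptors and regulators of mitophagy, or as transcription factors. These 50 had a median percentile of 78.2 and a median level of 253 normalized counts per kb, against 78.6 and 258.9 for the 43. This closeness depended on the scale. By base mean, the median percentile was 84.7 for the 43 and 78.1 for the 50. With the longest transcript it was 80.7 for the 43 and 78.6 for the 50. With the GENCODE basic transcript set it was 78.0 for the 43 and 78.2 for the 50. Their highest were *Sqstm1*, the receptor p62, at 3010, *Rab7*, a GTPase of late endosomes, at 2599, and *Fkbp8*, a mitochondrial receptor, at 1292 normalized counts per kb. *Gabarapl1* and *Pink1* exceeded all of them. Among the lowest were *Tfec*, a relative of *Tfeb*, at 0.0877, and *Foxo1*, a transcription factor, at 61.0 normalized counts per kb. *Mitf*, a further transcription factor named here after its value was seen, also did not exceed the median gene per kb. By base mean, however, *Foxo1* and *Mitf* were above the median gene, at percentiles 62.0 and 56.5. Per kb of all exons, transcription factors had the lowest median percentile by role in both lists, 58.5 for *Tfeb* and *Tfe3* and 49.6 for the 5 added ones.

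**Figure D4:**
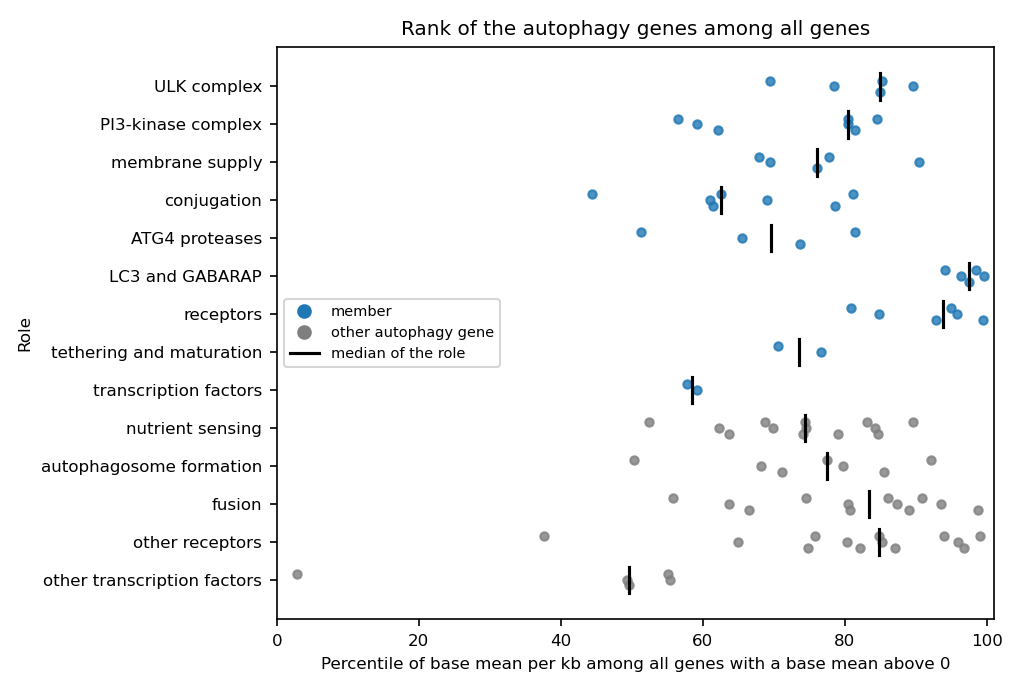
Percentile of base mean per kb among all genes with a base mean above 0, for the 43 autophagy genes (blue) and the 50 other genes of the pathway (grey), by role, with a black bar at the median of each role. The LC3 and GABARAP genes lie between 94.2 and 99.6, the conjugation genes between 44.4 and 81.1, and *Tfec* is the single point near 2.87.

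Counts of some members could include reads of another gene, or lack reads that match several places, since only uniquely mapped reads were counted. Of the 43 genes, 9 share exon bases with another gene of the table, and 3 of them over more than 10% of their exon length. *Becn1* shares 43.9% with *Cntd1*, *Gabarapl1* 28.3% with *1700101I11Rik* and *Atg4d* 19.3% with *Kri1*, each on the opposite strand. By base mean, *Cntd1* had 436 normalized counts against 2120 for *Becn1*, *1700101I11Rik* 377 against 10745 for *Gabarapl1*, and *Kri1* 753 against 1009 for *Atg4d*. The libraries were stranded, but the strand setting of the counting is not given in the sources used here, so reads of these partners may not have been told apart. Reads in the shared bases could then have been added to or lost from either gene, and these base means do not show which.

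The longest GENCODE M21 transcript of each member was searched for stretches of 100 bases shared with other genes. In 8 members, such stretches also occur, without a difference, in a transcript of a gene elsewhere in the genome. The share of such stretches was 44.2% in *Atg4a*, 18.8% in *Bnip3*, 15.3% in *Bnip3l* and 9.57% in *Gabarapl2*, and at most 3.12% in the other 4. *Gabarapl1*, *Pink1*, *Map1lc3a* and *Gabarap* had none in their longest transcripts, and exons outside those transcripts were not searched. The copy of *Atg4a* is *Atg4a-ps*, at chr3:103643954-103646068 on the minus strand, which is not a row of the deposited table. The 2 transcripts align over 2115 bases with 15 differences, 99.3% identity, and are the same for up to 559 bases in a row. The window shown is the first coding window of 60 bases to hold the most differences, which is 2, so it is not a typical stretch. It is printed from base 152 of the *Atg4a* transcript and base 142 of *Atg4a-ps*, with the bases that differ in capitals.
Atg4a: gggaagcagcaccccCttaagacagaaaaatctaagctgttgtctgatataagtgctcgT
Atg4a-ps: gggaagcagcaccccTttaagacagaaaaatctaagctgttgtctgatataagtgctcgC
The low level of *Atg4a*, 68.0 normalized counts per kb, was measured on a transcript with few bases that differ from its copy. Neither the part of the copy in that level nor the loss of reads that match both was tested.

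Finally, the promoters were searched for the sequence that Tfeb and Tfe3 bind. RefSeq promoters of GRCm38.p6, which is the mm10 build, span 250 bases before to 50 bases after a RefSeq start. They were found for 35 of the 43 genes, with 43 windows in all, since 7 of the genes have several starts. *Atg12*, *Atg16l1*, *Becn1*, *Pik3c3*, *Map1lc3a*, *Rb1cc1*, *Epg5* and *Bnip3l* had no entry. The motif CACGTG, which reads the same on both strands, was in at least 1 window of 6 of the 35 genes, 17.1%. On the same count it was in 8.09% of all 27025 genes of the RefSeq table and in 11.1% when the genes were limited to base means of 10 or more. Counted by window, it was in 14.0% of the windows of the 35 genes, 7.15% of all windows and 9.35% with that limit. Promoters of the 35 genes held a median of 20 CpG dinucleotides, against 19 when the genes were limited in that way and 7 for all genes.

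The 6 genes are of different roles, with 3 from conjugation (*Atg3*, *Atg5* and *Atg7*), 2 from the lipid kinase complex (*Atg14* and *Rubcn*) and the receptor *Bnip3*. Each site is shown with 12 bases on either side, on the strand of the gene and with the motif in capitals. *Atg3* is the only gene of the 6 with 2 copies, which begin 94 and 71 bases before the RefSeq start.
Atg3, chr16:45158723-45158775, plus strand: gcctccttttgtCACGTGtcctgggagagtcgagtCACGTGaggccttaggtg
Atg5, chr10:44268313-44268342, plus strand: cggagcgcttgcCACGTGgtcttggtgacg
Atg7, chr6:114670952-114670981, plus strand: catattggtggtCACGTGtgcagtaagtga
Atg14, chr14:47568418-47568447, minus strand: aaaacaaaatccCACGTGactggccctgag
Rubcn, chr16:32868437-32868466, minus strand: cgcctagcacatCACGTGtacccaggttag
Bnip3, chr7:138909597-138909626, minus strand: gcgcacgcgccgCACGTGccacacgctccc

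The motif began 14 bases before the RefSeq start in *Atg5*, 132 in *Atg7*, 88 in *Rubcn* and 108 in *Bnip3*, and it spanned the RefSeq start in *Atg14*. In 3 of the 6 genes that start lay well inside the gene as GENCODE M21 annotates it, 27999 bases from the outermost start in *Atg7*, 9400 in *Rubcn* and 2215 in *Atg14*. The start used for *Rubcn*, 1 of 2 in RefSeq, and that for *Atg14* coincide with a GENCODE transcript start, whereas the nearest for *Atg7* was 9066 bases away. Which start is used in the cord was not measured. The longer form TCACGTG, read on either strand, was in *Atg3*, *Atg7*, *Atg14* and *Rubcn*, 11.4% of the 35 genes against 4.29% of all genes and 6.47% of those with base means of 10 or more. The levels of the 6 genes ran from 103 normalized counts per kb in *Atg14* to 1096 in *Bnip3*. Neither *Gabarapl1* nor *Pink1*, the 2 highest of the 43, had the motif in this window. A match of letters is a description, and binding of these factors was not measured.

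Along the genome the 43 genes were spread over 19 chromosomes, with at most 5 on any chromosome, namely *Ulk2*, *Becn1*, *Wipi1*, *Gabarap* and *Nbr1* on chromosome 11. The closest pair was *Atg13* and *Ambra1* on chromosome 2, 19557 bases apart, at 514 and 285 normalized counts per kb. *Becn1* and *Nbr1* followed at 249862 bases apart, at 300.1 and 696 normalized counts per kb. Together the 43 genes made up 0.448% of the summed base means, and *Pink1* and *Gabarapl1* held 22.7% of that amount.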

How the data were processed

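RNA was extracted from the spinal cord of 5 WT and 5 *SOD1 G93A* females, and stranded mRNA libraries were sequenced. Per the methods and the submitters' processing notes, reads were filtered with Fastp, aligned to mm10 with HISAT2 2.1.0, counted with featureCounts 2.0.2 and compared with DESeq2. The gene annotation and strand setting are not given in the sources used here. The authors deposited 1 table. Its base mean, a signal that the authors averaged over all 10 libraries after dividing counts by size factors, was the only measurement used. The other 5 numeric columns hold the authors' comparison of the genotypes (fold change, standard error, Wald statistic, p-value and adjusted p-value) and were not used. Depth per library is unknown here, so no interval could be given, and nothing says whether the libraries differ technically.

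All 43 members were matched by symbol, and all are named, by role. Of the 50 other pathway genes the 3 highest and 3 lowest are named, except where an item is not reported here. The members and lists were chosen with earlier results of these data known. Base mean was divided by the length of the union of a gene's GENCODE M21 exons, which was found for 20645 of 20973 genes with a base mean above 0 (98.4%), 242 of them by Entrez ID. Alternatives were no length, the longest transcript, other gene backgrounds and another motif or window. The GENCODE basic transcript set, the medians of roles on other scales, motif counts by window and a promoter background limited to base means of 10 or more were alternatives added after seeing the data. Exact stretches of 100 bases from each member's longest transcript were searched in all GENCODE transcripts on both strands, also after seeing the data. Near-identical stretches of each member's longest transcript were found with blastn 2.17.0 at 95% identity or more over at least 100 bases. No test was run. The computation of levels and percentiles was checked on simulated data, and that of the exon union on a small example with a known answer. The searches of sequences, overlaps and promoters were not checked in that way. Python 3.11.15 was used with pandas 2.3.3, numpy 2.4.6, biopython 1.88 and matplotlib 3.10.9.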

Additional observations from a re-analysis of the deposited data

How the results depend on the processing

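The median percentile of the 43 genes was 78.6, and it became 84.7 by base mean, 80.7 with the longest transcript, 78.0 with the basic transcript set, 72.0 among genes with base means of 10 or more and 75.9 among protein-coding genes. The median percentile of the 50 other pathway genes stayed near 78.2, at 78.1 by base mean and 78.6 with the longest transcript. The medians of both lists were thus close per kb of all exons and with the basic set, and further apart by base mean. The number of the 43 above the median gene went from 42 to as few as 35. The share of *Gabarapl1* in its family, 47.5%, became 42.3% by base mean, 43.2% with the longest transcript and 44.2% with the basic set. Of the 9 paralog ratios, 5 kept their direction by base mean, 7 with the longest transcript and 6 with the basic set. The log2 ratio of *Atg2a* to *Atg2b*, 0.45, became -0.35 by base mean and -0.11 with either other length. That of *Atg4b* to *Atg4c*, -0.58, became 0.73 by base mean and 0.33 with either other length. That of *Tfe3* to *Tfeb*, -0.10, became 0.60 by base mean and 0.75 with the basic set, and that of *Bnip3l* to *Bnip3*, -0.22, became 0.54 by base mean. The share of all promoters with the motif, 8.09%, became 4.29% for the longer form, 6.86% before the start alone, 7.15% when each window was counted and 11.1% for genes with base means of 10 or more. The conjugation genes were next to lowest by role per kb of all exons and by base mean, and the Atg4 proteases with either other length. The gap between values per kb and by base mean comes from the length itself, and which length fits the transcripts of this tissue was not tested. No paired analysis was possible because no values of single libraries were used, and for the same reason no replicate was left out in turn.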

Other observations

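The globin genes *Hba-a1*, *Hba-a2* and *Hbb-bs* were listed at a base mean of 0 in the deposited table, while *Alas2*, an enzyme of heme synthesis in red blood cells, had a base mean of 137 normalized counts.

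Besides *Atg4a*, *Bnip3* had the largest near-identical part among the 43 genes. Over 94.2% of its longest transcript, a stretch of at least 100 bases matched another gene at 95% identity or more. The closest was the long noncoding RNA gene *AC160336.1*, at 98.3% identity. The corresponding parts were 34.7% in *Bnip3l*, which matched *Bnip3l-ps* at 99.2%, and 20.9% in *Gabarapl2*, which matched *Gm5829* at 96.6%. The part of these copies in the measured levels was not tested.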
